A study of Mus musculus with 20 samples.

Results

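The data set was examined for the transcripts of 10 NRF2 antioxidant genes in mouse dendritic cells raised from bone marrow (BMDCs): Nfe2l2, Keap1, Hmox1, Nqo1, Gclc, Gclm, Slc7a11, Txnrd1, Srxn1 and Prdx1. They were taken by symbol from a count table of 24421 genes. All 10 were found, and all 10 were among the 12465 genes kept by the filter on low counts and tested. Their counts ranged from 341 to 44765 per library. Marrow of 5 mice, lettered A to E, was cultured for 8 days in GM-CSF (40 ng/mL), and cells of every mouse were given each of 4 conditions for 4 hours. According to the labels, DMSO Ova received 5% DMSO and ovalbumin, and DMSO IC received 5% DMSO and ovalbumin immune complexes (IC). The methods give no percentage of DMSO for the cultures. IBET Ova and IBET IC received the same stimuli with I-BET151 (iBET) at 3.3 μM, a small molecule that blocks the bromodomains of BET proteins. In the methods, iBET was diluted from a stock in DMSO. The labels name no DMSO content for the iBET groups, so whether the solvent was matched cannot be read from them. They describe iBET and stimulus as given together, whereas the methods place iBET before the stimulus. They also describe sorted cells, whereas the methods describe lysis in culture. The labels name no strain, sex or age for the 5 mice.

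NRF2, the protein of Nfe2l2, is a transcription factor that KEAP1 holds in the cytoplasm and delivers for degradation. Electrophiles and oxidants modify cysteines of KEAP1, after which NRF2 accumulates, pairs with small Maf proteins and binds antioxidant response elements in its target genes. In myeloid cells the products of these targets make glutathione, recycle thioredoxin and peroxiredoxins, and break down heme and quinones. NRF2 itself is regulated largely as a protein, which transcript counts do not measure.

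With IC the genes that changed moved in a single direction, and with iBET they moved in both. With IC, 8 of the 10 genes rose in DMSO-treated cells and 6 of 10 in iBET-treated cells, and none fell. Of all genes tested, 9.59% rose and 10.7% fell in DMSO, and 5.19% rose and 6.63% fell in iBET. In a fit that also held the mouse as a factor (a block), 9 of 10 rose in both, where 18.3% and 14.2% of all genes rose. Hmox1 rose the most in DMSO- and in iBET-treated cells. With iBET, Slc7a11, which encodes the cystine importer, fell by 2.08 on the log2 scale in Ova-treated cells, whereas Gclc, which encodes the catalytic subunit of the first enzyme of glutathione synthesis, rose by 1.49. Keap1 also fell and Txnrd1 rose, in both Ova- and IC-treated cells.

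Normalized CPM values (counts scaled to library size with edgeR's TMM factors) are given below in the order of mice A, B, C, D and E, and errors are the SD over 5 mice. Libraries held 16447491 to 29245150 counts (median 21764663). Dendritic cell markers were present in every library (summed CPM of Itgax, Cd74, H2-Ab1, Flt3, Zbtb46 and Ccr7 between 4279 and 8824), although Flt3 was near 0 (median 0.71 CPM). Macrophage and monocyte markers were also present. The summed CPM of 6 such genes had medians of 1460 in DMSO Ova, 1498 in DMSO IC, 967 in IBET Ova and 1118 in IBET IC, and was higher in mice A and B than in mice C, D and E within each group. This sum was lower with iBET in every mouse. Its part in the results with iBET was not tested. The summed CPM of 5 neutrophil markers was at most 49.9 and was highest in mouse E in each group. That of 4 mast cell and basophil markers was at most 2.7, and those of the B cell and T cell markers at most 0.408 and 0.163. The sum of 3 red cell markers, nearly all of it Hbb-bt, was 0.555 to 1.94 CPM in mice A and B. In mice C, D and E it was 4.73 to 9.34 CPM. The part of these differences between mice in the results was not tested. In bulk RNA, fewer cells of a type and less RNA per cell cannot be told apart. Mouse A had the highest value of the 5 mice for 9 of the 10 genes in DMSO Ova, and values without it are given for the genes whose calls or fold changes it moved. Mice A and B are also set against mice C, D and E, because these sets separated along a principal component in earlier work on the data. No label names a batch.

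**Figure D1:**
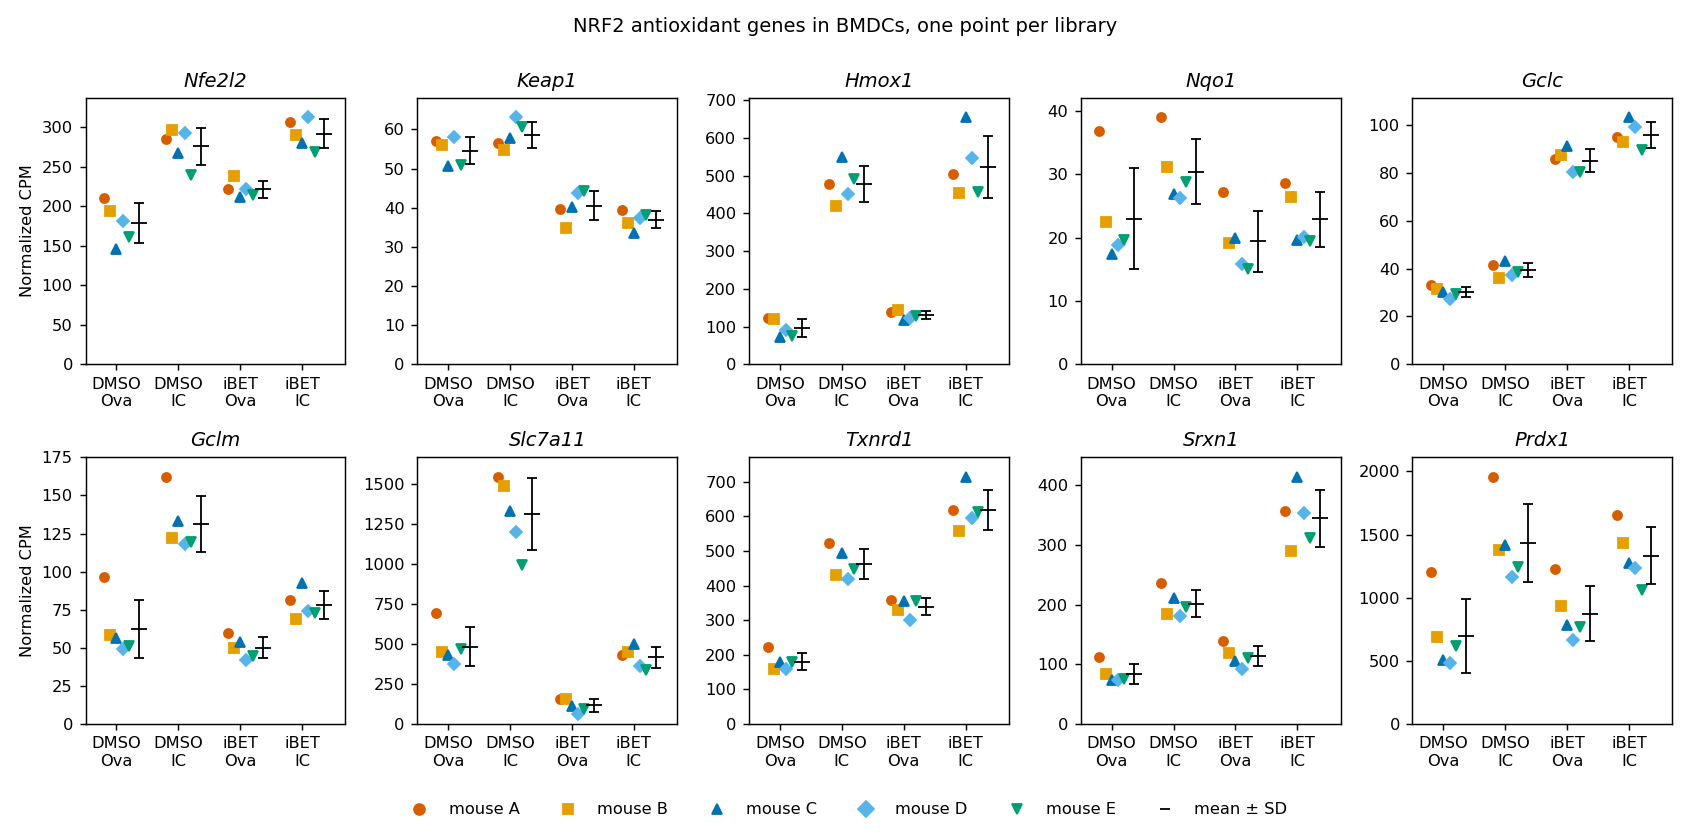
Normalized CPM of the 10 NRF2 antioxidant genes (one panel per gene, vertical axes from 0) in the 20 libraries of 4 groups; coloured points are mice A to E and black bars are the mean and SD (n = 5). The Hmox1 values with IC (421 to 655) lie above all those with Ova (73 to 143), and the Slc7a11 values with iBET lie below those with DMSO under the same stimulus.

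An antioxidant response element core, TGACNNNGC on either strand, was searched in RefSeq promoter windows of the GRCm38.p6 assembly, which reach from 250 bases before to 50 bases after a start. Windows were found for 8 of the 10 genes (10 windows). Over all 32851 windows, 12.4% held the core. Among these genes it was found in a window of Nfe2l2, Gclm, Prdx1, Txnrd1 and Srxn1, and not in those of Keap1, Nqo1 and Slc7a11. An element outside these short windows would not be found, so a gene without a match may still have one. The Srxn1 match (TGACCTAGC) lay at 28 to 36 after the start. The Txnrd1 match belongs to 1 of its 3 starts, which lies inside the annotated span of the gene. The Prdx1 match also holds TGANTCA, the letters of an AP-1 element. After the Slc7a11 values were seen, the windows were also searched for the amino acid response element TGATGNAA, which ATF4 and its partners bind. Among the windows of these genes, only that of Slc7a11 held it, with 2 copies in opposite orientation. Of all windows, 3.97% held at least 1. A match of letters is a description of the sequence and not a measured binding site. Nfe2l2, Gclm, Prdx1, Txnrd1 and Srxn1 rose with IC in DMSO-treated cells, where 8 of the 10 genes and 9.59% of all genes tested rose. Slc7a11 rose with IC and fell with iBET. The Slc7a11 window held no antioxidant core, and whether the letters take part in any change was not tested. The 5 stretches with these letters before the start are shown. Each reads 5′ to 3′ on the gene's strand, holds no base of the gene's annotated exons, and has the matched letters (or their reverse complement) in capitals.
Nfe2l2, chr2:75704855-75704913, reverse strand: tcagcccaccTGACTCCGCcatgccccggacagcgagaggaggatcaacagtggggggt
Gclm, chr3:122245383-122245471, forward strand: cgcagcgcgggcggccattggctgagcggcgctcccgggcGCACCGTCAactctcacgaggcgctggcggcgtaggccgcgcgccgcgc
Prdx1, chr4:116685426-116685514, forward strand: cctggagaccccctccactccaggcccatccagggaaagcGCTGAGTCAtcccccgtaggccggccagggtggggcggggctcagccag
Txnrd1, chr10:82859074-82859162, forward strand: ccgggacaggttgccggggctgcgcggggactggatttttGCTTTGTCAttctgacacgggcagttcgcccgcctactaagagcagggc
Slc7a11, chr3:50443615-50443719, reverse strand: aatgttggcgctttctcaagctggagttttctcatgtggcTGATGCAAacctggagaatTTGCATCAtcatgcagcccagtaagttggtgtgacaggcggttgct
The Nfe2l2 match was at -240 to -232 from the start, that of Gclm at -134 to -126, that of Prdx1 at -133 to -125 and that of Txnrd1 at -92 to -84. The Slc7a11 matches were at -66 to -59 and -47 to -40.

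Of the genes encoding the regulators, Nfe2l2 rose with IC and Keap1 fell with iBET. Nfe2l2 (chr2:75675513-75704641, reverse strand, GRCm38) had 209.9, 193, 146, 181 and 161 CPM in DMSO Ova and 285, 296, 268, 293 and 239 CPM in DMSO IC. The values in IBET Ova were 222, 239, 212, 221 and 214 CPM and in IBET IC 307, 290.5, 280.2, 312 and 269 CPM. All IC libraries lay above the Ova libraries of the same treatment, and the IBET Ova libraries above the DMSO Ova libraries by a narrow gap (lowest 212, highest 209.9). The log2 fold change with IC was 0.63 (SE 0.0847, edgeR adjusted p = 4.36e-05) in DMSO and 0.40 (SE 0.0844, edgeR adjusted p = 0.00452) in iBET. With iBET it was 0.31 (SE 0.0845, edgeR adjusted p = 0.00379) in Ova and 0.08 (SE 0.0842, edgeR adjusted p = 0.438) in IC, where the groups overlapped and the test was not passed. The difference with iBET in Ova was 0.19 in mice A and B alone, against 0.45 in the other 3.

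Keap1 (chr9:21229730-21239361, reverse strand), the adaptor that hands NRF2 to the CUL3 ubiquitin ligase, had 57, 55.9, 50.8, 58.1 and 50.9 CPM in DMSO Ova and 56.5, 54.7, 57.9, 63.1 and 60.5 CPM in DMSO IC. With iBET it had 39.5, 34.9, 40.2, 43.9 and 44.2 CPM in Ova and 39.3, 36.2, 33.6, 37.3 and 38.2 CPM in IC. Every iBET library lay below every DMSO library. Its log2 fold change with iBET was -0.43 (SE 0.0677, edgeR adjusted p = 2.19e-05) in Ova and -0.66 (SE 0.0678, edgeR adjusted p = 7.8e-08) in IC, and it was lower in 5 of 5 mice under either stimulus. With IC the Keap1 differences were small and did not pass, at 0.10 (SE 0.0673, edgeR adjusted p = 0.312) in DMSO and -0.14 (SE 0.0679, edgeR adjusted p = 0.215) in iBET; with library size in place of TMM the former turned to -0.0043 and the latter, at -0.24, passed (edgeR adjusted p = 0.0152), as it did when surrogate variables were added (-0.20, edgeR adjusted p = 0.00656). The antisense gene Gm16754 overlaps Keap1, and the strand setting of the counting is not given in the sources used here.

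Hmox1 (chr8:75093621-75100589, forward strand) encodes heme oxygenase 1, which opens the heme ring to biliverdin, iron and carbon monoxide. It had 122, 119, 73, 91.2 and 75.5 CPM in DMSO Ova and 478, 421, 550.2, 452 and 491 CPM in DMSO IC, means of 96.2 ± 23.4 and 479 ± 48.3 CPM. In iBET-treated cells it had 139, 143, 119, 122 and 129 CPM with Ova and 504, 453, 655, 547 and 458 CPM with IC, means of 130.4 ± 10.6 and 523 ± 82.9 CPM. No IC library overlapped an Ova library. The log2 fold change with IC was 2.31 (SE 0.142, edgeR adjusted p = 2.56e-09) in DMSO and 2.00 (SE 0.14, edgeR adjusted p = 2.05e-08) in iBET, that is 4.98-fold and 4.01-fold. In mice A and B alone these were 1.89 and 1.77, against 2.66 and 2.16 in the other 3.

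The effect of iBET on Hmox1 was smaller. In Ova-treated cells the groups overlapped and the log2 fold change was 0.44 (SE 0.136, edgeR adjusted p = 0.00949), higher in 5 of 5 mice; without mouse E it was 0.37 and no longer passed (edgeR adjusted p = 0.0553). In IC-treated cells it was 0.13 (SE 0.135, edgeR adjusted p = 0.432) and did not pass.

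Nqo1 (chr8:107388225-107403206, reverse strand) encodes a quinone reductase that is often used as a readout of NRF2. It had 36.8, 22.4, 17.3, 18.8 and 19.6 CPM in DMSO Ova and 39, 31.1, 26.9, 26.3 and 28.7 CPM in DMSO IC. The IBET Ova values were 27.2, 19.1, 19.9, 15.9 and 15.1 CPM and the IBET IC values 28.6, 26.5, 19.7, 20.1 and 19.5 CPM. Mouse A was the highest of its group in all 4, and the groups overlapped in every contrast. No Nqo1 contrast passed the test without the mouse as a block. The log2 fold change with IC was 0.40 (SE 0.196, edgeR adjusted p = 0.163) in DMSO and 0.24 (SE 0.198, edgeR adjusted p = 0.501) in iBET, and with iBET -0.24 (SE 0.198, edgeR adjusted p = 0.305) in Ova and -0.41 (SE 0.196, edgeR adjusted p = 0.0851) in IC. With the mouse as a block, all 4 passed. The rise with IC was then 0.43 (edgeR adjusted p = 6.78e-04) in DMSO and 0.25 (edgeR adjusted p = 0.0427) in iBET, and the difference with iBET -0.23 (edgeR adjusted p = 0.0271) in Ova and -0.41 (edgeR adjusted p = 3.09e-04) in IC. Without mouse A, the rise with IC in DMSO (0.53, edgeR adjusted p = 0.0058) and the fall with iBET in IC (-0.40, edgeR adjusted p = 0.00968) also passed, whereas the difference with iBET in Ova was -0.16, edgeR adjusted p = 0.273.

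The genes of glutathione synthesis split with iBET. Slc7a11 (chr3:49892526-50443614, reverse strand) encodes xCT, which brings in cystine in exchange for glutamate and so supplies the cysteine of glutathione. It had 694, 446, 431, 376 and 466 CPM in DMSO Ova and 155, 154, 109.8, 61.2 and 92.9 CPM in IBET Ova. With IC it had 1541, 1487, 1331, 1199 and 992 CPM in DMSO and 427, 448, 499.8, 363 and 336 CPM in iBET. The iBET and DMSO libraries did not overlap under either stimulus, and neither did the IC and Ova libraries under either treatment.

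The Slc7a11 log2 fold change with iBET was -2.08 (SE 0.22, edgeR adjusted p = 1.3e-07) in Ova and -1.66 (SE 0.216, edgeR adjusted p = 1.98e-06) in IC, so that the mean was 4.22-fold and 3.16-fold lower. With IC it was 1.44 (SE 0.215, edgeR adjusted p = 1.2e-04) in DMSO and 1.86 (SE 0.218, edgeR adjusted p = 1.24e-05) in iBET. The mean in IBET IC, 415 ± 65.9 CPM, was close to that in DMSO Ova, 483 ± 123 CPM, and those libraries overlapped; that pair was not tested. Mouse A stood apart in DMSO Ova at 694 CPM, and without it the Slc7a11 difference with iBET in Ova was similar (-2.04, edgeR adjusted p = 1.21e-06). In Ova the difference was -1.89 in mice A and B alone, against -2.22 in the other 3. In IC it was -1.77 in mice A and B alone, against -1.53 in the other 3.

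Gclc (chr9:77754535-77794485, forward strand) had 33.1, 31.3, 30.4, 27.5 and 29.2 CPM in DMSO Ova and 41.7, 36.2, 43.1, 37.5 and 38.5 CPM in DMSO IC. With iBET it had 85.7, 87.5, 91.5, 80.3 and 80.3 CPM in Ova and 95, 93, 103, 99.1 and 89.5 CPM in IC. No iBET library came below 80.3 CPM and no DMSO library above 43.1 CPM. The log2 fold change with iBET was 1.49 (SE 0.0646, edgeR adjusted p = 4.56e-13) in Ova and 1.28 (SE 0.0639, edgeR adjusted p = 3.32e-12) in IC, which is 2.81-fold and 2.44-fold higher. With IC, Gclc rose in DMSO by 0.38 (SE 0.0639, edgeR adjusted p = 3.98e-04). In iBET the difference was 0.17 (SE 0.0626, edgeR adjusted p = 0.0769) and did not pass without the block, whereas with the mouse as a block it did (0.17, edgeR adjusted p = 0.0131).

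Gclm (chr3:122245557-122270732, forward strand), which encodes the modifier subunit of the same ligase, was lower with iBET where Gclc was higher. It had 96.1, 58.3, 56.6, 49.3 and 50.9 CPM in DMSO Ova and 162, 122, 134, 118 and 119.6 CPM in DMSO IC. With iBET it had 59.6, 49.6, 53.7, 42.2 and 44.7 CPM in Ova and 81.4, 68.9, 92.4, 73.8 and 72.9 CPM in IC. The IC groups did not overlap, whereas the Ova groups did. Its fall with iBET was -0.75 (SE 0.154, edgeR adjusted p = 3.44e-04) in IC. In Ova it was -0.32 (SE 0.155, edgeR adjusted p = 0.0865), and it passed with the mouse as a block (-0.30, edgeR adjusted p = 0.00831). Without mouse A it did not pass in the fit with no block (-0.18, edgeR adjusted p = 0.138). With IC, Gclm rose by 1.07 (SE 0.155, edgeR adjusted p = 8.9e-05) in DMSO and by 0.64 (SE 0.155, edgeR adjusted p = 0.0104) in iBET. The latter did not pass without mouse C (0.61, edgeR adjusted p = 0.0750) or without mouse D (0.60, edgeR adjusted p = 0.0543).

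The ratio of Gclc to Gclm, each as CPM per kb of annotated exon, does not depend on how the libraries are scaled. It was 0.575, 0.897, 0.898, 0.929 and 0.959 in DMSO Ova (mean 0.852 ± 0.157, SD, n = 5) and lay between 0.430 and 0.540 in DMSO IC (mean 0.507 ± 0.0465). In IBET Ova it was 2.40, 2.95, 2.85, 3.18 and 3.00 (mean 2.88 ± 0.291), and in IBET IC it was 1.95, 2.25, 1.87, 2.24 and 2.05 (mean 2.07 ± 0.173). Gclc was thus below Gclm per length in every DMSO library and above it in every iBET library, and the ratio was lower with IC than with Ova in 5 of 5 mice under either treatment. Which gene is the higher depends on the lengths used (3766 bases for Gclc and 6291 for Gclm), whereas the differences between groups do not. Gm17494 (reverse strand) and the pseudogene Gm6061 (forward strand) overlap the annotated span of Gclm.

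**Figure D2:**
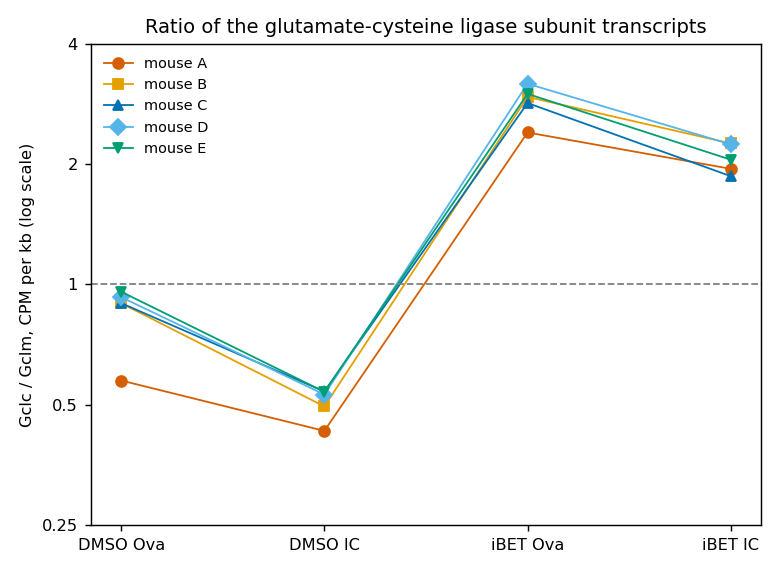
Ratio of Gclc to Gclm (CPM per kb of exon, log2-spaced vertical axis) in the 4 groups; each line joins the 4 libraries of one mouse and the dashed line marks equal levels. All 10 DMSO libraries lie below the dashed line and all 10 iBET libraries above it.

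The thioredoxin genes Txnrd1 and Srxn1 rose with IC and with iBET. Txnrd1 (chr10:82833951-82897712, forward strand) encodes the cytosolic thioredoxin reductase, which returns oxidized thioredoxin to its active form with NADPH. It had 221, 159.8, 178, 159.8 and 179.8 CPM in DMSO Ova and 357, 329, 355, 301 and 355 CPM in IBET Ova. With IC it had 523, 432, 494, 420.4 and 447 CPM in DMSO and 619.7, 557, 714, 596 and 612 CPM in iBET. The 4 groups followed in this order, DMSO Ova, IBET Ova, DMSO IC and IBET IC, without overlap between neighbours. With iBET the Txnrd1 log2 fold change was 0.92 (SE 0.0921, edgeR adjusted p = 6.19e-08) in Ova and 0.42 (SE 0.0913, edgeR adjusted p = 6.08e-04) in IC. With IC it was 1.37 (SE 0.093, edgeR adjusted p = 8.42e-09) in DMSO and 0.87 (SE 0.0919, edgeR adjusted p = 3.24e-06) in iBET. Eid3 lies within the annotated span of Txnrd1 and had between 33 and 145 counts per library.

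Srxn1 (chr2:152105516-152111376, forward strand) encodes sulfiredoxin, which repairs peroxiredoxins whose active cysteine has been overoxidized. It had 113, 83.8, 72.9, 73.8 and 75.1 CPM in DMSO Ova and 139, 119, 106, 92.8 and 111 CPM in IBET Ova. With IC it had 236, 185, 211, 180.1 and 197 CPM in DMSO and 357, 289.9, 414, 353 and 312 CPM in iBET. The IBET IC libraries lay above all others, and the 2 Ova groups overlapped. The log2 fold change with IC was 1.27 (SE 0.13, edgeR adjusted p = 1.9e-06) in DMSO and 1.61 (SE 0.131, edgeR adjusted p = 1.24e-07) in iBET. With iBET it was 0.44 (SE 0.129, edgeR adjusted p = 0.00663) in Ova and 0.78 (SE 0.128, edgeR adjusted p = 3.6e-05) in IC, and it was higher in 5 of 5 mice in both.

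Prdx1 (chr4:116685544-116700822, forward strand), a cytosolic peroxiredoxin that thioredoxin reduces, had the highest mean CPM per kb of the 10 genes in each group. It had 1202, 688, 509.6, 479.6 and 613 CPM in DMSO Ova and 1956, 1378, 1421, 1165 and 1241 CPM in DMSO IC. With iBET it had 1231, 931, 783, 662 and 764 CPM in Ova and 1656, 1432, 1278, 1238 and 1058 CPM in IC. The groups overlapped in all 4 contrasts, in DMSO through mouse A, whose Ova library (1202 CPM) exceeded the lowest IC library. The rise with IC was 1.04 (SE 0.223, edgeR adjusted p = 0.00291) in DMSO. In iBET it was 0.61 (SE 0.222, edgeR adjusted p = 0.0804) and passed with the mouse as a block (0.63, edgeR adjusted p = 9.02e-05) and without mouse A (0.67, edgeR adjusted p = 0.00494). The difference with iBET was 0.32 (SE 0.221, edgeR adjusted p = 0.222) in Ova and -0.10 (SE 0.221, edgeR adjusted p = 0.709) in IC. The first of these passed with the block (0.36, edgeR adjusted p = 0.00263) and without mouse A (0.46, edgeR adjusted p = 0.00714), and it was 0.19 in mice A and B alone, against 0.51 in the other 3.

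Counted over the 10 genes, 5 rose and 2 fell with iBET in Ova-treated cells (edgeR adjusted p under 0.05), where 27.7% of all genes tested rose and 28.9% fell. In IC-treated cells 3 rose and 3 fell, where 27.1% of all genes rose and 29% fell. With the mouse as a block, 6 rose and 4 fell in Ova (33.5% and 35.2% of all genes), and 3 rose and 4 fell in IC (32.6% and 35.4%). The libraries of the 2 treatments did not overlap for 5 of the 10 genes in Ova and 6 in IC, against 38% and 42.8% of all genes in either direction. The directions were mixed. The median log2 fold change of the 10 was 0.32 in Ova and -0.01 in IC, beside -0.0029 and -0.0054 over all genes tested.

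With IC, 8 of the 10 rose and none fell in DMSO-treated cells, where 9.59% of all genes rose and 10.7% fell. In iBET-treated cells 6 rose and none fell, where 5.19% of all genes rose and 6.63% fell. With the mouse as a block, 9 of the 10 rose and none fell in both, and Keap1 was the gene that did not pass, where in DMSO 18.3% rose and 19.8% fell and in iBET 14.2% rose and 14.7% fell. The IC and Ova libraries did not overlap for 7 of the 10 in DMSO and 6 in iBET, against 12.4% and 10% of all genes in either direction. The median log2 fold change was 1.05 in DMSO and 0.62 in iBET, beside -0.02 and -0.01 over all genes. Scaled by library size only, the median of all genes moved to -0.13 and -0.12 and the split of all calls moved from 1196 higher and 1335 lower to 582 and 2593 in DMSO, and from 647 and 827 to 313 and 2030 in iBET. Under that scaling 8 of the 10 rose in DMSO and 6 in iBET, and Keap1 fell in the latter. The contrasts share groups (DMSO Ova is the reference of one iBET and one IC contrast, and so on), so they are given side by side and were not correlated. Without mouse A, 6 rose and 2 fell with iBET in Ova, 3 rose and 4 fell with iBET in IC, and 9 and 7 rose with IC in DMSO and in iBET. The 27 calls without the block over the 4 contrasts kept their direction in mice A and B alone, where 18 passed, and in mice C, D and E alone, where all 27 passed. Both sets were part of the fit that gave these calls, so this is a description and not an independent check. Over all genes, mice A and B alone gave 5484 and 5232 calls with iBET in Ova and IC, and 500 and 296 with IC in DMSO and iBET. Mice C, D and E alone gave 7350, 7195, 3408 and 1188 in the same order.

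**Figure D3:**
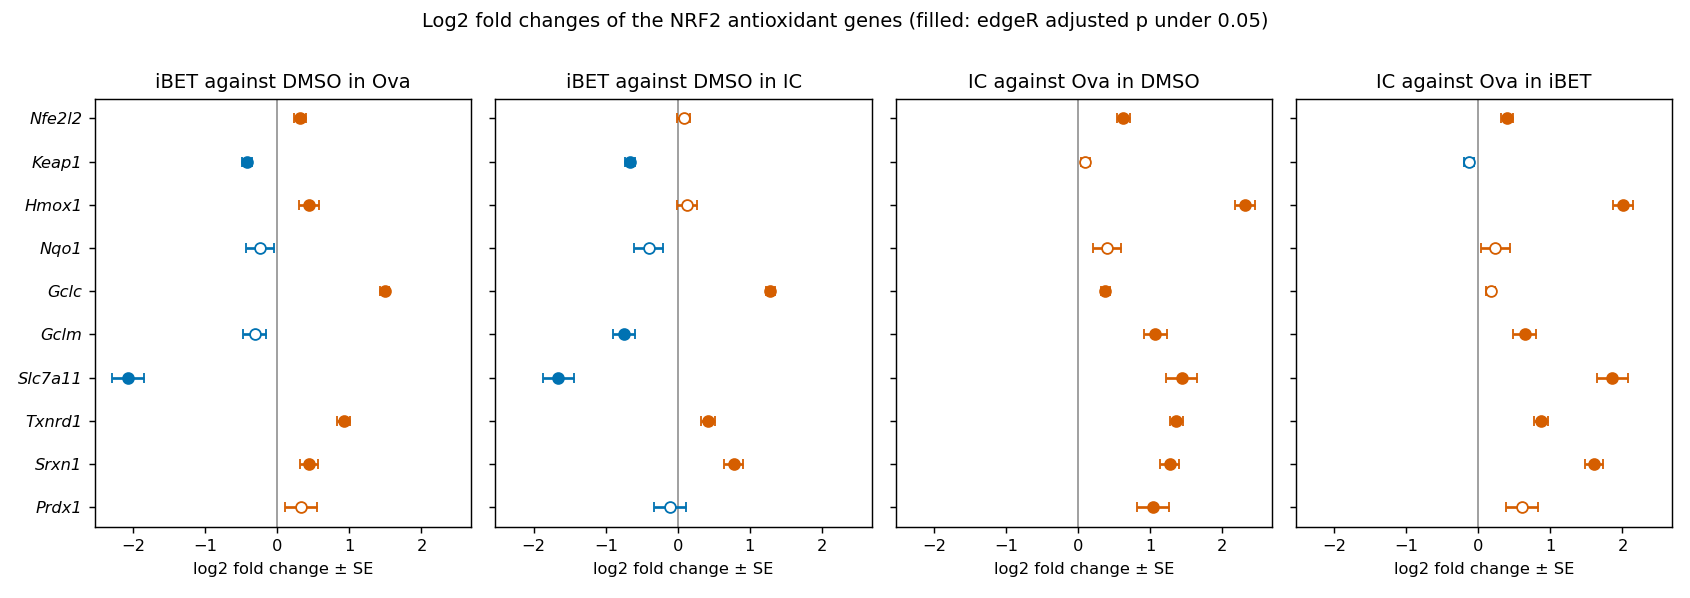
Log2 fold changes (horizontal axes, error bars SE of the edgeR fit) of the 10 genes in the 4 contrasts; orange is higher, blue is lower, and filled points have an edgeR adjusted p under 0.05. In the panels on iBET, Gclc and Slc7a11 lie on opposite sides, whereas in the panels on IC all filled points lie above 0.

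Whether iBET acted differently with IC than with Ova was tested as an interaction, the iBET effect in IC minus that in Ova. None of the 10 genes passed edgeR's test (5 of all genes tested, 0.0401%), although 3 had an unadjusted p under 0.05 (Txnrd1, Keap1 and Gclc). DESeq2's Wald test also gave 0, with 3 under 0.05 unadjusted. With the mouse as a block, 8 had an unadjusted p under 0.05 and 1, Txnrd1, passed after adjustment in both edgeR and DESeq2, where 102 genes (0.818%) passed in edgeR. The Txnrd1 difference was -0.50 (SE 0.129, edgeR adjusted p = 0.381) without the block and -0.50 (edgeR adjusted p = 0.00721) with it, and it lay below 0 in 5 of 5 mice; over the alternatives its adjusted p ranged from 2.9e-05 to 1. For Gclm (-0.43), Prdx1 (-0.43), Nqo1 (-0.16), Hmox1 (-0.31) and Gclc (-0.21) it was also below 0 in 5 of 5 mice, and for Srxn1 (0.34) above 0 in 5 of 5, without passing. A p that misses the threshold does not show equal effects. Without the block, the SE of these differences ranged from 0.09 (Gclc) to 0.31 (Prdx1) on the log2 scale. With the block, it ranged from 0.07 (Gclc) to 0.19 (Slc7a11).

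Per length of annotated exon, the order of the genes changed between groups. Prdx1 was the highest in DMSO Ova (229 ± 96.5 CPM per kb), above Hmox1 (54.9 ± 13.3), Nfe2l2 (47 ± 6.64) and Slc7a11 (34.7 ± 8.84), neighbours whose ranges overlapped. In DMSO IC, Hmox1 (273 ± 27.6 CPM per kb) stood clear of Slc7a11 (94.1 ± 16) below it and of Prdx1 (471 ± 102) above it. In IBET Ova, Slc7a11 was at 8.22 ± 2.89 CPM per kb, with a range overlapping those of Keap1 (8.64 ± 0.805) and Gclm (7.94 ± 1.11) at the lower end, while Gclc was at 22.6 ± 1.28. In IBET IC the ranges of Prdx1 (438 ± 73.9) and Hmox1 (299 ± 47.3) overlapped, Srxn1 followed at 122 ± 17, and Keap1 was the lowest at 7.87 ± 0.467. These lengths are unions of all annotated exons, and which of them these cells use was not measured.

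Beyond these genes, 91 others of the antioxidant programme were listed in 7 groups by function, and 85 were tested. With iBET, 28 rose and 9 fell in Ova (27.7% and 28.9% of all genes tested) and 24 rose and 15 fell in IC (27.1% and 29%). With IC, 24 rose and 3 fell in DMSO (9.59% and 10.7% of all genes), and 13 rose and 4 fell in iBET (5.19% and 6.63%). With the mouse as a block these counts were 33 and 19, 30 and 24, 42 and 10, and 34 and 6, where 33.5% and 35.2%, 32.6% and 35.4%, 18.3% and 19.8%, and 14.2% and 14.7% of all genes rose and fell. The counts of the lists below are a description beside these shares, and nothing particular to a list is read from them. The medians of the 85 were 0.08 and 0.07 with iBET and 0.16 and 0.16 with IC on the log2 scale, beside -0.0029 and -0.0054 and -0.02 and -0.01 over all genes tested. Scaled by library size only, 17 rose and 10 fell with IC in DMSO, and 9 rose and 8 fell in iBET, so that the balance of directions with IC depended on the scaling.

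Of the 9 heme and iron genes, 7 rose and 0 fell with IC in DMSO (3 and 0 by library size only), and 3 rose and 0 fell in iBET. With the mouse as a block, 7 rose and 0 fell in both. Among them Slc40a1, the iron exporter ferroportin, rose from 6.59 ± 1.36 to 29 ± 8.07 CPM in DMSO, a log2 fold change of 2.14 (edgeR adjusted p = 3.36e-07). In iBET it was 0.71 (edgeR adjusted p = 0.0235), and with iBET in IC-treated cells it fell, at -1.81 (edgeR adjusted p = 1.05e-07). The difference between the responses, the interaction, was -1.43 (edgeR adjusted p = 0.0894) without the mouse as a block and -1.42 (edgeR adjusted p = 0.00111) with it. With the block, 3 of the 85 genes passed for the interaction, the others being Slc3a2 and Nqo2, and without it none did. The ferritin chains Fth1 and Ftl1, which store the iron that heme breakdown releases, were higher with IC in DMSO at 0.63 (edgeR adjusted p = 0.0132) and 0.52 (edgeR adjusted p = 0.0424). Ftl1 was higher with iBET in Ova at 0.98 (edgeR adjusted p = 9.2e-05), and Blvra, a biliverdin reductase, was lower at -0.61 (edgeR adjusted p = 8.41e-06). With iBET in IC, Ftl1 was also higher (0.93, edgeR adjusted p = 1.6e-04) and Blvra lower (-0.63, edgeR adjusted p = 5.33e-06). Fth1, Ftl1, Blvra and Slc3a2 were named after their values were seen.

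Of the thioredoxin list of 18 genes, 8 rose and 1 fell with iBET in Ova, and 7 rose and 0 fell in IC, against the shares of all genes given above (with the block, 10 and 2, and 9 and 1). Txnrd3, a further thioredoxin reductase, rose from 5.47 ± 0.482 to 16.2 ± 1.11 CPM in Ova (1.57, edgeR adjusted p = 5.66e-11) and had a log2 fold change of 1.37 (edgeR adjusted p = 2.64e-10) in IC. Txnip, which binds and inhibits thioredoxin, rose with iBET in Ova (1.37, edgeR adjusted p = 3.14e-09) and in IC (1.10, edgeR adjusted p = 5.98e-08). With IC it fell, at -1.53 (edgeR adjusted p = 2.02e-08) in DMSO and -1.80 (edgeR adjusted p = 3.38e-09) in iBET, where Txnrd1 rose. Sesn1, a sestrin, rose with iBET in Ova (1.11, edgeR adjusted p = 3.36e-09) and in IC (1.16, edgeR adjusted p = 1.97e-09). Prdx6, another peroxiredoxin, rose with IC in DMSO (0.69, edgeR adjusted p = 0.00155).

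In the glutathione list, 5 of 18 rose and 1 fell with iBET in Ova, and 5 rose and 3 fell in IC, against the same shares (with the block, 5 and 4 in both). The largest rise was that of Chac1, an enzyme that degrades glutathione, which went from 11.4 ± 3.56 to 60.3 ± 20.0 CPM in Ova (2.40, edgeR adjusted p = 8.91e-07) and from 11 ± 1.62 to 34.7 ± 12.9 CPM in IC (1.65, edgeR adjusted p = 6.67e-05). Among 17 detoxification genes, Akr7a5, an aldo-keto reductase, rose with iBET in Ova (1.33, edgeR adjusted p = 6.4e-08) and in IC (1.56, edgeR adjusted p = 8.48e-09). Nqo2 (log2 fold change -0.97, edgeR adjusted p = 2.77e-05) and Osgin1 (-1.54, edgeR adjusted p = 3.44e-04) fell with iBET in Ova, and Osgin1 rose with IC in iBET (1.45, edgeR adjusted p = 0.00534). With iBET in IC, Nqo2 also fell (-0.58, edgeR adjusted p = 0.00383), whereas Osgin1 did not pass (-0.54, edgeR adjusted p = 0.123). Akr1b8, at under 4 CPM on average in each group, fell in Ova (-0.83, edgeR adjusted p = 0.044) and in IC (-1.01, edgeR adjusted p = 0.0123).

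Among the 13 other regulators, 5 rose and 1 fell with iBET in Ova and 4 rose and 5 fell in IC, while 6 rose and 0 fell with IC in DMSO and 3 rose and 1 fell in iBET, beside the shares of all genes given for each contrast (with the block, 6 and 3, 4 and 6, 6 and 1, and 5 and 1). Nfe2l3, a relative of Nfe2l2 with few counts here, fell with iBET from 2.38 ± 1.5 to 0.683 ± 0.446 CPM in Ova (-1.79, edgeR adjusted p = 0.0204) and at -2.05 (edgeR adjusted p = 0.0138) in IC. Maff, a small Maf partner, rose with IC at 1.23 (edgeR adjusted p = 0.00145) in DMSO and 1.04 (edgeR adjusted p = 0.0101) in iBET. Me1, the NADPH-producing malic enzyme, fell with iBET in IC (-0.91, edgeR adjusted p = 0.00679). Of the 7 NADPH genes 2 rose with iBET in Ova and 1 fell in IC, counts that were 0 and 2 with scaling by library size only. Of the 3 tested genes of the catalase and superoxide dismutase list, 2 rose with iBET in Ova and 2 with IC in DMSO.

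**Figure D4:**
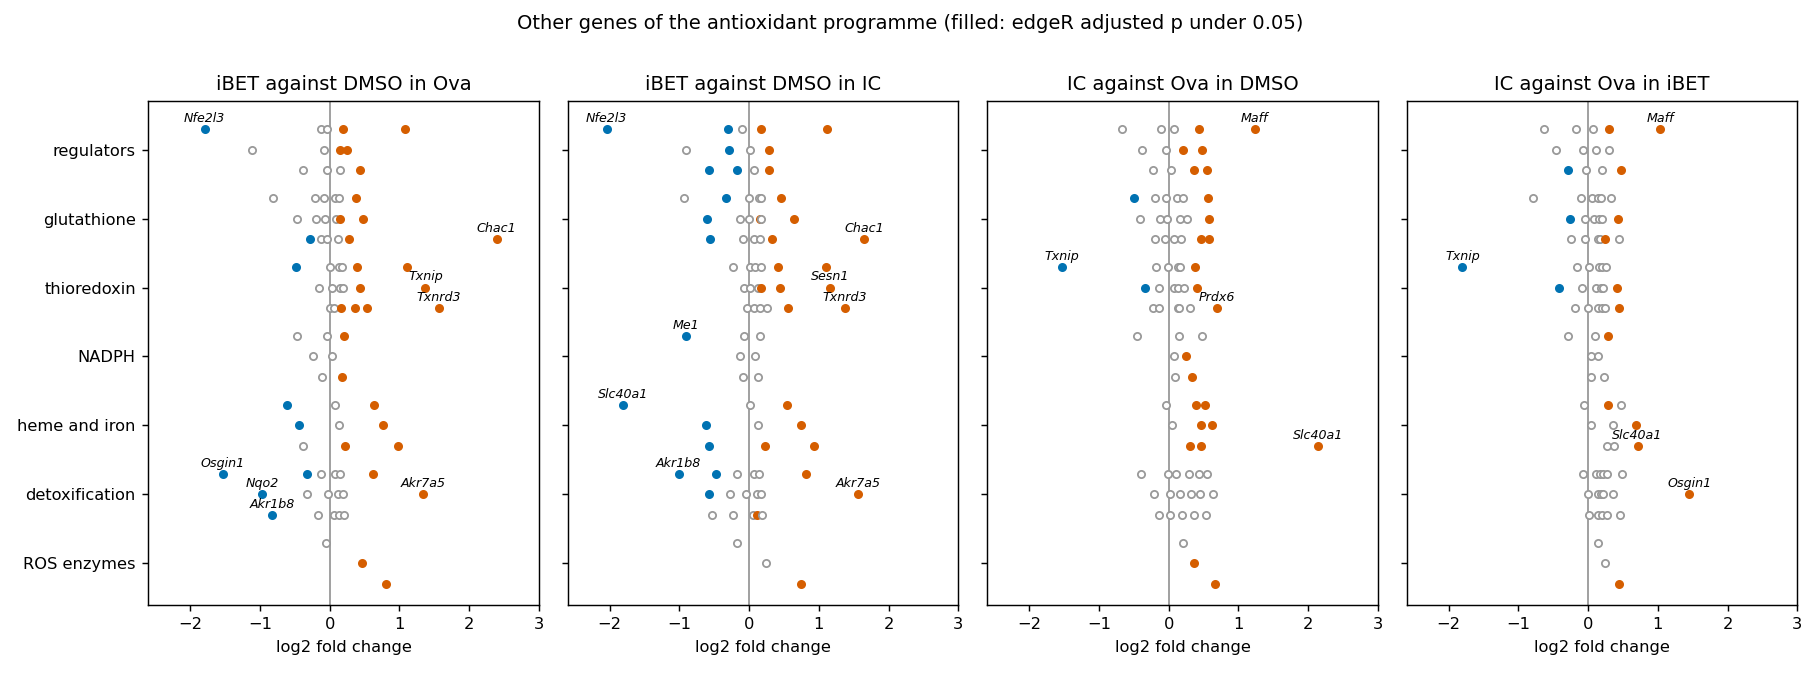
Log2 fold changes (horizontal axes) of 85 further antioxidant genes, arranged by functional list (vertical axis, points staggered for legibility), in the 4 contrasts; filled points have an edgeR adjusted p under 0.05, orange higher and blue lower. Chac1 lies farthest to the right with iBET and Slc40a1 farthest to the right with IC in DMSO.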

How the data were processed

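RNA-seq of BMDCs from 5 mice in 4 conditions (20 libraries) was analysed. According to the methods and the submitters' processing notes, the authors trimmed the reads (Trim Galore), aligned them (HISAT2, mm10) and assigned them to genes (featureCounts). Raw counts per gene and library, as the authors deposited them, were used. A second deposited table, the counts scaled per library, was not used here. The annotation, strand setting and handling of multi-mapping reads are not given in the sources used here, and the names of the batches that sva was used to remove are not given either.

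The quasi-likelihood test of edgeR 4.0.16 (R 4.3.3) was run after filterByExpr and TMM scaling. One fit held all 20 libraries and no factor but the 4 groups, and p-values were adjusted over all 12465 genes by the Benjamini-Hochberg method (threshold 0.05). Log2 CPM used a prior count of 2. The replicate numbers are mice, so libraries with the same letter are paired. Their deviations from the group means correlated at 0.524 on average (0.307 to 0.675, 30 pairs). Between different mice of different groups the average was -0.127 (-0.576 to 0.557, 120 pairs), so the 2 ranges overlapped. Centring on the group means by itself pushes this second average below 0. Fits with the mouse as a block are given for the 10 genes where they change a call, and for the lists of other genes mainly as counts. Over all genes together, libraries of a group differed by more than counting error (chi-square per degree of freedom at least 12.5 in 40 pairs), so errors are SDs between mice. This value includes Rn45s, which held 2.69% to 8.61% of the counts of a library. It was not computed for the 10 genes alone, so the part of counting error in their spread is not known from it.

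The named genes are the 10 members, up to 4 genes in each direction (with IC, 4 in all) from the list of 91 by log2 fold change among those past the threshold, and the 2 genes most correlated with each member. The members and lists were chosen with earlier results of these data known. Alternatives were the block, DESeq2 1.42.0 without and with it, DESeq2's size factors or library size in place of TMM, 3 surrogate variables from sva 3.50.0, no filter, the 10 libraries compared, each mouse left out, and mice A and B or C, D and E alone, sets that an earlier principal component analysis separated and no label names as batches. The tests were also run on simulated counts. These held group differences but no differences between mice, so they do not bear on the pairing. Positions and exon lengths are from GENCODE M21 (GRCm38), and promoter windows from RefSeq (GRCm38.p6). The BMDM data and the other experiments of the study were not analysed here.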

Additional observations from a re-analysis of the deposited data

Results flagged for a closer look

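In DMSO Ova, mouse A stood far above the other 4 mice, with a gap to the next mouse of most of the range of the group, for 5 of the 10 genes. Its values were 36.8 CPM for Nqo1, 96.1 CPM for Gclm, 694 CPM for Slc7a11, 113 CPM for Srxn1 and 1202 CPM for Prdx1. No other value stood apart in the 40 sets of 5 values examined, and chance flags about 1 in 20 such sets. The 5 values come from 1 library and are not independent of each other. Mouse A had the highest value in 24 of the 40 sets. The cause was not tested.

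The effect of iBET on Txnrd1 was smaller with IC than with Ova, with a difference of -0.50 on the log2 scale in the fit with the mouse as a block (edgeR adjusted p = 0.00721, below 0 in 5 of 5 mice). Without the block the difference was also -0.50 and did not pass (edgeR adjusted p = 0.381).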

How the results depend on the processing

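The 50 fold changes and differences of the 10 genes were refitted under 740 alternatives in all. Of these, 682 kept direction and side of the threshold, 40 passed where the reported result had not, 12 no longer passed (9 of them with mice A and B only, the fit with the fewest libraries) and 6 turned direction, none of which passed in either fit. The reversals were Keap1 with IC in DMSO (-0.0043 by library size only, -0.033 in mice A and B), Keap1 with IC in iBET (0.031 in mice A and B), the interaction of Keap1 (0.064) and of Nqo1 (0.038) in mice A and B, and Prdx1 with iBET in IC (0.039 with surrogate variables). Apart from Keap1 by library size only, no fold change turned under the 3 scalings.

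With the replicate block, 4755 genes changed with IC in DMSO (2531 without it) and 3601 in iBET (1474), and 102 passed for the interaction (5), with 1 of the 10 members (0). The paired DESeq2 fit gave 4611, 3586 and 184 genes, with 1 member for the interaction, and unpaired DESeq2 gave 24 for the interaction. Surrogate variables gave 4062, 3102 and 47, and library size only gave 2343 for IC in iBET. Mice A and B alone gave 500, 296 and 0 genes, 4 members with iBET in Ova (7 in all mice) and 5 with IC in DMSO (8); mice C, D and E gave 13 genes for the interaction. Leaving out 1 mouse in turn gave 1180 to 2477 genes with IC in DMSO (lowest without mouse C, 1418 without mouse D), 643 to 1177 in iBET (lowest without mouse C, then 714 without D and 917 without B) and 0 to 2 for the interaction. The members called ranged from 6 to 8 and 6 to 7 with iBET in Ova and IC, and from 8 to 9 and 5 to 7 with IC in DMSO and iBET. The causes of these shifts were not tested. The lists beside the 10 genes were refitted only with the block, the scalings and without mouse A.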

Other observations

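Over the 20 libraries, which share 5 mice and 4 groups, the log2 CPM of the 10 genes varied along more than one pattern. Pearson's r was 0.94 between Txnrd1 and Srxn1 and 0.94 between Hmox1 and Srxn1, and 0.87 between Gclm and Slc7a11, whereas it was -0.91 between Gclc and Keap1 and -0.56 between Gclc and Slc7a11. Nfe2l2 and Keap1 had an r of -0.27. These values mix differences between groups with those between mice and are given as a description.

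Among 8370 other genes with a mean of at least 10 CPM, the genes most like Slc7a11 over the 20 libraries were Olr1, a receptor for oxidized low-density lipoprotein (r = 0.984), and Mdm2, the ubiquitin ligase of p53 (r = 0.974). Those most like Gclm were Alas1, the first enzyme of heme synthesis (r = 0.984), and the scavenger receptor Cd36 (r = 0.963). Hmox1 lay closest to Ralgds (r = 0.969) and Prosc (r = 0.965), and Srxn1 to Prosc (r = 0.961) and Prmt10 (r = 0.960). Prdx1 lay closest to the peroxiredoxin Prdx6 (r = 0.973) and the flap endonuclease Fen1 (r = 0.965), Txnrd1 to Ss18 (r = 0.969) and Ttyh2 (r = 0.968), and Nfe2l2 to Ninj1 (r = 0.935) and Ss18 (r = 0.934). Gclc was most like 1810055G02Rik (r = 0.986) and the Wnt receptor Fzd5 (r = 0.986), Keap1 like Acvrl1 (r = 0.956) and Myo1c (r = 0.954), and Nqo1 like Akr1a1 (r = 0.948) and Rnf128 (r = 0.942).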
